A study of Mus musculus with 7 samples.

Results

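Transcripts of glucose uptake, glycolysis and glycogen metabolism were examined in left ventricles of mice with a titin missense variant. The 39 genes were chosen by name, and cover glucose transport and trapping, both stages of glycolysis, lactate and pyruvate dehydrogenase, glycogen storage and entry into the pentose phosphate pathway. All 39 were among the 20927 genes of the count table, and 38 passed the filter on low counts. The study asked which molecular changes accompany the mild cardiac phenotype of homozygous titin A178D mice. RNA from left ventricles of 3 WT mice (replicates 1, 3 and 4) and 4 mice homozygous for A178D (replicates 1 to 4) was measured by poly(A) RNA sequencing, with 1 library per heart. Both genotypes are labelled C57BL/6J. The mutant line came from embryonic stem cells whose *Ttn* gene had been edited by CRISPR-Cas9. It was crossed onto this strain before WT and homozygous mice were bred, so that remnants of the stem cell background could also differ between the genotypes. Age and sex of these 7 mice are not given in the sources used here, and gene counts do not show the substitution, so that the genotype of each heart rests on its label.

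Glucose enters a cardiomyocyte through the insulin-responsive carrier GLUT4 and the basal carrier GLUT1, and is trapped when hexokinase phosphorylates it. Glycolysis then spends ATP in a preparatory stage, in which phosphofructokinase sets the pace, and regains it in a pay-off stage that ends in pyruvate. Pyruvate is either reduced to lactate or oxidised in mitochondria by the pyruvate dehydrogenase complex, while spare glucose is stored as glycogen. The adult heart draws most of its energy from fatty acids, and many steps of glucose use are served by a muscle isozyme together with isozymes that are more widespread in other cells.

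The libraries held 51797208, 54245530 and 41102868 counts in WT replicates 1, 3 and 4, and 40623300, 52345529, 42174448 and 33080675 in A178D replicates 1 to 4. The members took 2.47, 2.49 and 2.44% of them in the WT hearts and 2.53, 2.52, 2.50 and 2.65% in the A178D hearts. The 13 entries of the mitochondrial genome held 0 counts, so that these shares leave out mitochondrial transcripts. Levels are given as CPM, which relate counts to the TMM-scaled library total, and levels of different genes are compared only as CPM per kilobase of transcript. The genotypes were compared in 13894 genes that reached 10 counts in 3 or more libraries, by the quasi-likelihood test of edgeR with Benjamini-Hochberg adjustment, and a gene with an adjusted p under 0.05 is termed called. Log2 fold changes are A178D over WT. In 2 libraries counts depended on transcript length more than in the others. A doubling of length went with a log2 deviation of 0.0768 in WT replicate 1 and -0.124 in A178D replicate 4, and the other 5 libraries lay between -0.0168 and 0.0179. Many glycolytic transcripts are short, so values corrected for the trends with length and GC content, and values without both libraries, are given beside part of the results.

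Of the 38 tested members, 1 was called higher in A178D hearts, against 1.04% of all tested genes, and 0 were called lower, against 1.31%, by the quasi-likelihood test of edgeR with Benjamini-Hochberg adjustment. The called gene was *Pfkp*, the platelet type of phosphofructokinase. DESeq2 also called *Pfkp* and, in addition, *Phkg1* as lower, while limma-voom called *Pfkp* alone. At an unadjusted p under 0.05, edgeR gave 10 members (26.3%), 7 of them above 0 and 3 below, against 16.7% of all tested genes. Hearts of the 2 genotypes were fully separate in 5 members with A178D above (7.61% of all tested genes) and 3 with A178D below (8.52%), which together is 21.1% of the members against 16.1% of all tested genes. The median log2 fold change was 0.052 over the members and 0.0023 over all tested genes, and 26 of 38 members were above 0 (68.4%, against 50.5%). After correction for length and GC, the members' median was 0.030, and without WT replicate 1 and A178D replicate 4 it was 0.024. The median absolute log2 fold change was 0.094 for the members and 0.12 for all tested genes. Standard errors of the members ran from 0.059 to 0.26, with a median of 0.073.

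**Figure D1:**
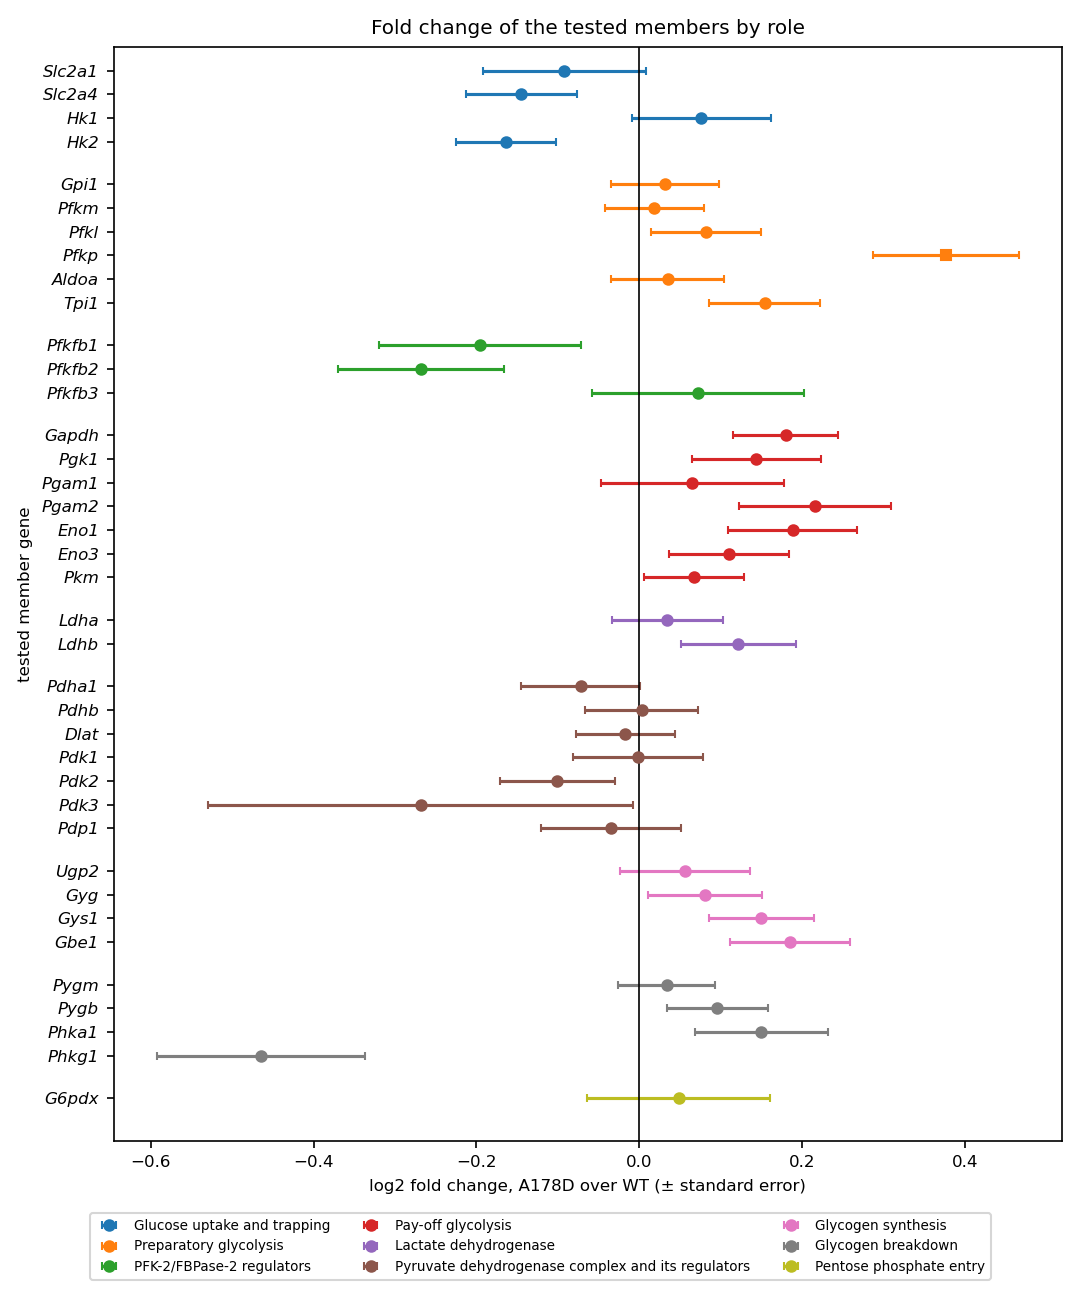
Log2 fold change of each of the 38 tested members (A178D over WT, horizontal axis), with bars for the standard error from edgeR and colours for the role. The square marks *Pfkp* (0.38), the only member called in this test, and the lowest value is that of *Phkg1* (-0.46).

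Glucose transport and trapping had 4 transcripts. The carrier GLUT4, encoded by *Slc2a4*, was the most abundant of them per transcript length, with 297 ± 18.8 CPM per kilobase in WT (SD, n = 3) and 269 ± 11.6 in A178D hearts (SD, n = 4). *Slc2a4* was at 618, 686 and 614 CPM in WT replicates 1, 3 and 4 and at 567, 576, 556 and 614 CPM in A178D replicates 1 to 4. The highest A178D heart, replicate 4, lay just below the lowest WT heart, replicate 4, so that the genotypes did not overlap, by a narrow margin. Its log2 fold change was -0.14 (standard error 0.068), and it was not called (adjusted p = 0.304, the quasi-likelihood test of edgeR with Benjamini-Hochberg adjustment). After correction for length and GC it was -0.19, with an adjusted p of 0.0543 (same edgeR test, Benjamini-Hochberg adjusted), and the adjusted p over all alternatives ran from 0.0543 to 0.646. Without WT replicate 3 the log2 fold change of *Slc2a4* was -0.091. The basal carrier GLUT1, encoded by *Slc2a1*, was far less abundant, at 5.07 ± 0.470 CPM per kilobase in WT (SD, n = 3) and 4.75 ± 0.324 in A178D hearts (SD, n = 4), and its hearts overlapped (log2 fold change -0.092, standard error 0.10). For *Slc2a1* the log2 fold change ranged over -0.16 to -0.045 with single hearts left out. It was -0.17 without WT replicate 1 and A178D replicate 4.

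Hexokinase II, the isozyme typical of insulin-responsive muscle and encoded by *Hk2*, was at 558, 537 and 513 CPM in WT replicates 1, 3 and 4 and at 473, 484, 481 and 475 CPM in A178D replicates 1 to 4. All 4 A178D hearts lay close together and below all 3 WT hearts. Its log2 fold change of -0.16 (standard error 0.062) had an unadjusted p of 0.0196 and was not called (adjusted p = 0.202, the quasi-likelihood test of edgeR with Benjamini-Hochberg adjustment), and ranged over -0.19 to -0.13 in fits that each omitted 1 heart. *Hk1*, which encodes the more widely expressed hexokinase I, had 253, 272 and 219 CPM in the WT hearts and 246, 248, 263 and 290.5 CPM in the A178D hearts. These hearts overlapped, with the highest value in A178D replicate 4 and the lowest in WT replicate 4. *Hk1* had a log2 fold change of 0.076 (standard error 0.085) and its sign turned without WT replicate 4 (-0.0049).

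Preparatory glycolysis was represented by 7 transcripts, and the muscle aldolase transcript *Aldoa* was the most abundant member of all, at 2329 ± 87.7 CPM per kilobase in WT (SD, n = 3) and 2386 ± 179 in A178D hearts (SD, n = 4). It was at 3390.3, 3655 and 3511 CPM in WT replicates 1, 3 and 4 and at 3489.6, 3488, 3435 and 4008 CPM in A178D replicates 1 to 4. A178D replicate 4 stood above the other 3 A178D hearts, which lay within the WT range. Its log2 fold change was 0.035 (standard error 0.069), and -0.019 without A178D replicate 4. *Aldoc*, the brain aldolase, was near the limit of detection with 2, 2 and 0 counts in WT and 10, 6, 4 and 2 in A178D hearts and was the member that did not pass the filter. Its CPM values did not overlap between the genotypes, but 2 counts stood behind WT replicates 1 and 3 as well as behind A178D replicate 4.

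Phosphofructokinase commits sugar to glycolysis and is encoded by *Pfkm* (muscle), *Pfkl* (liver) and *Pfkp* (platelet). *Pfkp* (ENSMUSG00000021196, chromosome 13 from 6579768 to 6648777 on GRCm38) was at 58.2, 59.5 and 48.9 CPM in WT replicates 1, 3 and 4 and at 80.2, 71.4, 65.7 and 71.4 CPM in A178D replicates 1 to 4. Every A178D heart was above every WT heart, with the highest value in A178D replicate 1 and the lowest in WT replicate 4. The mean was 55.5 ± 5.80 CPM in WT (SD, n = 3) and 72.2 ± 6.02 in A178D hearts (SD, n = 4). *Pfkp* rose by a log2 fold change of 0.38 (standard error 0.089), which is 1.30-fold, with an adjusted p of 0.0446 from the quasi-likelihood test of edgeR with Benjamini-Hochberg adjustment. In fits that each omitted 1 heart the log2 fold change stayed within 0.29 to 0.43, and the call held in 2 of 7 fits. The adjusted p from edgeR was 0.107 without WT replicate 3, 0.181 without WT replicate 4, 0.148 without A178D replicate 1, 0.0807 without A178D replicate 2 and 0.0527 without A178D replicate 3, while all alternatives together gave 0.00432 to 0.181, Benjamini-Hochberg adjusted. After correction for length and GC the log2 fold change was 0.39 (adjusted p = 0.0214, same edgeR test, Benjamini-Hochberg adjusted). The gene overlaps *Pitrm1* on the opposite strand, and reads of the pair can be told apart only if strand was used in counting, which is not given in the sources used here.

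*Pfkm*, the dominant phosphofructokinase transcript, was at 1652, 1620.0 and 1631 CPM in WT replicates 1, 3 and 4 and at 1618, 1680.3, 1594 and 1729 CPM in A178D replicates 1 to 4. The genotypes overlapped fully, and the log2 fold change was 0.019 (standard error 0.061), with its sign turning to -0.0029 without A178D replicate 4. Per kilobase, *Pfkm* had a mean of 580.4 CPM in the 3 WT hearts, *Pfkl* 49.8 and *Pfkp* 16.3, so that *Pfkp* was a minor transcript in this tissue. *Pfkl* ran from 181 to 192 CPM in WT and from 189 to 212 in A178D hearts, with overlap (log2 fold change 0.082, standard error 0.067). In bulk tissue a rise of such a transcript within 1 cell type and a larger number of cells that express it cannot be told apart, and neither can less RNA per cell and fewer cells of a type.

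Triose phosphate isomerase, which interconverts the products of aldolase, is encoded by *Tpi1*. Its level was 864, 886 and 859 CPM in the WT hearts and 992, 906, 928 and 1045 CPM in the A178D hearts. All A178D hearts were above all WT hearts, and A178D replicates 1 and 4 were the highest. For *Tpi1*, the log2 fold change of 0.15 (standard error 0.068) had an unadjusted p of 0.0395 and an adjusted p of 0.271 (the quasi-likelihood test of edgeR with Benjamini-Hochberg adjustment). After correction for length and GC it was 0.064, with an unadjusted p of 0.227. *Gpi1*, encoding glucose-6-phosphate isomerase, overlapped between genotypes (log2 fold change 0.031, standard error 0.066, 0.020 after correction and -0.034 without both libraries). Over the 6 tested genes of the preparatory stage the median was 0.059, with 6 of 6 above 0, and 5 of 6 after the correction for length and GC.

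**Figure D2:**
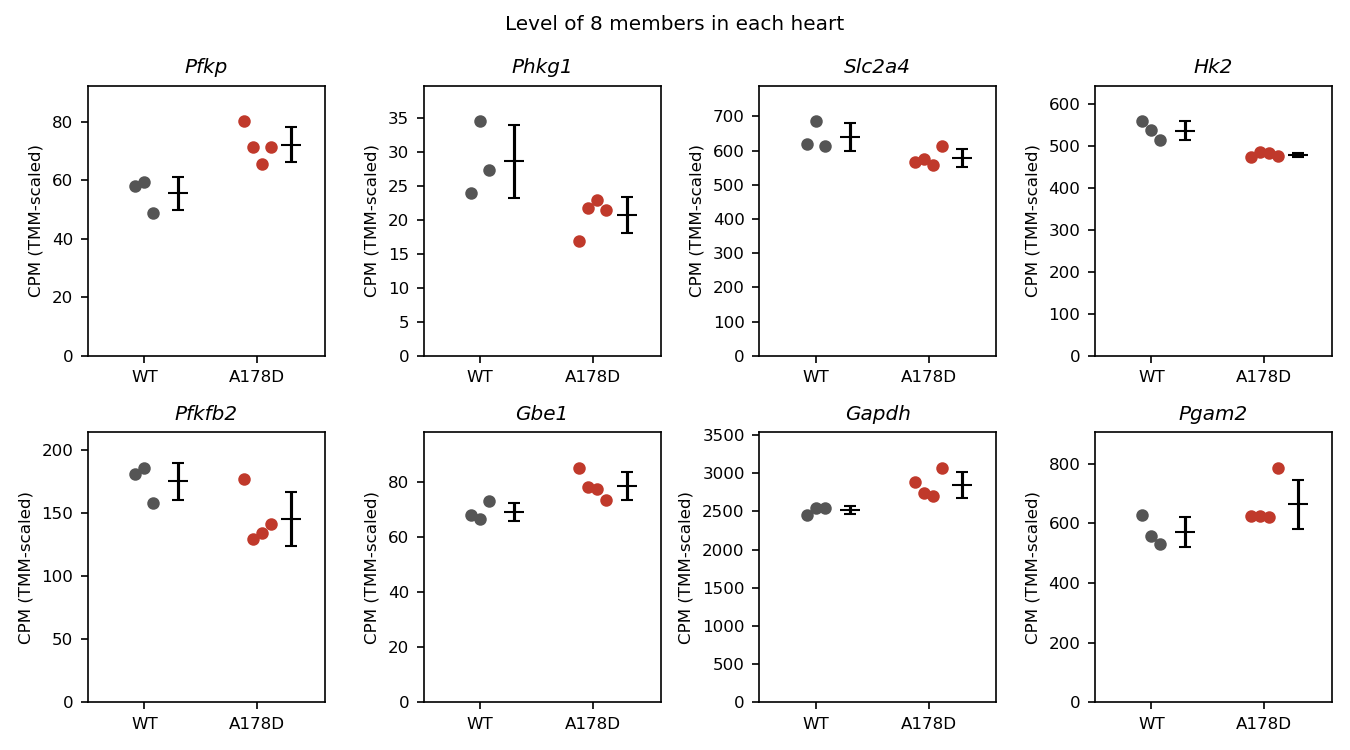
Level of 8 members in each heart as TMM-scaled CPM (vertical axes from 0), with points for hearts in the order of their replicate numbers and bars for the mean ± SD of 3 WT and 4 A178D hearts. *Pfkp*, *Gbe1* and *Gapdh* were higher in every A178D heart than in every WT heart, *Phkg1*, *Slc2a4* and *Hk2* were lower, and only *Pfkp* was called by edgeR (means 55.5 and 72.2 CPM).

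The bifunctional enzymes PFK-2/FBPase-2 make and degrade fructose 2,6-bisphosphate, the strongest activator of phosphofructokinase, and *Pfkfb2* encodes the form that prevails in heart. *Pfkfb2* was also the most abundant of the 3 transcripts here, with 74.6% of their summed CPM per kilobase. It was at 181, 186 and 158 CPM in WT replicates 1, 3 and 4 and at 177, 129, 134 and 141 CPM in A178D replicates 1 to 4. A178D replicates 2, 3 and 4 lay below every WT heart, and A178D replicate 1 was within the WT range. *Pfkfb2* had a log2 fold change of -0.27 (standard error 0.10), with an unadjusted p of 0.0200 and an adjusted p of 0.204 from the quasi-likelihood test of edgeR with Benjamini-Hochberg adjustment, and it ranged over -0.38 to -0.21 with single hearts left out. *Pfkfb1* ran from 24.5 to 38.3 CPM in WT and from 24.6 to 27.5 in A178D hearts (log2 fold change -0.20, standard error 0.12, and 0.0047 without WT replicate 4). Without WT replicate 1 and A178D replicate 4, *Pfkfb1* was at -0.29 (unadjusted p = 0.0183, adjusted p = 0.149, edgeR with Benjamini-Hochberg adjustment). *Pfkfb3*, the inducible form, ran from 19.3 to 21.9 CPM in WT and from 16.6 to 25.2 in A178D hearts (log2 fold change 0.072, standard error 0.13, and -0.0064 without A178D replicate 3). Both overlapped between the genotypes.

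The 7 transcripts of pay-off glycolysis were all above 0 in log2 fold change, from 0.066 for *Pgam1* to 0.22 for *Pgam2*, with a median of 0.14 against 0.0023 over all tested genes. Their summed level was 6487, 6598 and 6648 CPM in WT and 7163, 6974, 6955 and 7892 CPM in A178D hearts. The lowest A178D heart, replicate 3, was above the highest WT heart, and A178D replicate 4 stood clear of all others. The median was 0.090 after correction for length and GC and 0.086 without WT replicate 1 and A178D replicate 4, and all 7 stayed above 0 after this correction. The part of these trends in the higher values was not tested further. None of the 7 was called by the quasi-likelihood test of edgeR with Benjamini-Hochberg adjustment, while *Gapdh*, *Pgam2* and *Eno1* had an unadjusted p under 0.05, and DESeq2 and limma-voom called 0 of the 7 as well.

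*Gapdh*, which encodes glyceraldehyde-3-phosphate dehydrogenase, also served the study as the reference transcript in quantitative PCR and as a loading control in Western blots. It was at 2455, 2539 and 2548 CPM in WT replicates 1, 3 and 4 and at 2879.8, 2740.0, 2700.5 and 3072 CPM in A178D replicates 1 to 4. Every A178D heart exceeded every WT heart, and A178D replicate 4 was the highest. The mean was 2514 ± 51.7 CPM in WT (SD, n = 3) and 2848 ± 168 in A178D hearts (SD, n = 4). The log2 fold change of 0.18 (standard error 0.065), or 1.13-fold, had an unadjusted p of 0.0150 and an adjusted p of 0.179 (the quasi-likelihood test of edgeR with Benjamini-Hochberg adjustment). It was 0.092 after correction for length and GC (unadjusted p = 0.0729) and 0.12 without WT replicate 1 and A178D replicate 4. *Gapdh* was the most abundant transcript of the stage, with 43.3% of its summed CPM per kilobase. The count table repeats the identifier of *Gapdh* with other counts, and the entry with the most counts was used. The mouse genome holds many processed copies of *Gapdh*, *Pgam1*, *Eno1*, *Pgk1*, *Tpi1*, *Aldoa* and *Ldha*, and how the counting treated reads that match several places is not given in the sources used here, so that their levels are uncertain.

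Phosphoglycerate mutase moves the phosphate group within its substrate, and *Pgam2* encodes its muscle form. *Pgam2* was at 627, 557 and 529 CPM in WT replicates 1, 3 and 4 and at 623, 624, 619 and 786 CPM in A178D replicates 1 to 4. A178D replicates 1, 2 and 3 lay just below WT replicate 1 and above the other WT hearts, whereas A178D replicate 4 was well above all. The log2 fold change was 0.22 (standard error 0.093, unadjusted p = 0.0364) with an adjusted p of 0.263 from the quasi-likelihood test of edgeR with Benjamini-Hochberg adjustment, and 0.090 after correction for length and GC. Without WT replicate 1 and A178D replicate 4 it was 0.20 (unadjusted p = 0.00431, adjusted p = 0.0654, same edgeR test, Benjamini-Hochberg adjusted). *Pgam1*, the form of most other tissues, had 20.4, 17.6 and 16.0 CPM in the WT hearts and 18.3, 16.9, 18.3 and 22.0 CPM in the A178D hearts. These overlapped, with a log2 fold change of 0.066 (standard error 0.11) that turned to -0.012 without WT replicate 4 and to -0.014 without A178D replicate 4, and was 0.0077 after correction for length and GC.

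Enolase forms phosphoenolpyruvate. *Eno1*, the widespread alpha form, was at 141, 150.5 and 136 CPM in WT replicates 1, 3 and 4 and at 159, 146, 163 and 181 CPM in A178D replicates 1 to 4. A178D replicates 1, 3 and 4 exceeded every WT heart, and A178D replicate 2 lay below WT replicate 3. Its log2 fold change of 0.19 (standard error 0.079) had an unadjusted p of 0.0317 and an adjusted p of 0.250 by the quasi-likelihood test of edgeR with Benjamini-Hochberg adjustment. *Eno3*, the muscle beta form, was more abundant, at 1065 ± 59.0 CPM per kilobase in WT (SD, n = 3) against 72.4 ± 3.85 for *Eno1*, and its hearts overlapped (log2 fold change 0.11, standard error 0.074). For *Eno3* the log2 fold change was 0.034 after correction for length and GC and 0.012 without WT replicate 1 and A178D replicate 4. *Pgk1*, for phosphoglycerate kinase, and *Pkm*, for muscle pyruvate kinase, overlapped as well, with log2 fold changes of 0.14 (standard error 0.079, 0.10 after correction and 0.050 without both libraries) and 0.067 (standard error 0.062, 0.028 after correction and 0.059 without both libraries).

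*Ldhb*, which encodes the heart subunit of lactate dehydrogenase, took 68.5% of the summed CPM per kilobase of *Ldha* and *Ldhb*. *Ldhb* was at 1189.9, 1194 and 1275 CPM in WT replicates 1, 3 and 4 and at 1362, 1278, 1225 and 1441 CPM in A178D replicates 1 to 4. The lowest A178D heart, replicate 3, lay below WT replicate 4, and A178D replicates 1 and 4 were the highest of all. The log2 fold change was 0.12 (standard error 0.071) for *Ldhb*, and 0.035 (standard error 0.068) for *Ldha*, the muscle subunit, whose hearts also overlapped. After correction for length and GC these were 0.038 and -0.029.

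The pyruvate dehydrogenase complex feeds pyruvate into the citric acid cycle, and is switched off by kinases and on by phosphatases. Its 7 members had a median log2 fold change of -0.034, from -0.27 for *Pdk3* to 0.0034 for *Pdhb*. In edgeR 0 of 7 were called and 0 reached an unadjusted p under 0.05, DESeq2 and limma-voom called 0 as well, and the hearts overlapped for all 7. *Pdhb*, for the beta subunit of the decarboxylase, was the most abundant per length and was at 699, 767 and 761 CPM in WT replicates 1, 3 and 4 and at 775, 696, 719 and 787 CPM in A178D replicates 1 to 4. The 2 genotypes covered nearly the same range, and the log2 fold change was 0.0034 (standard error 0.069). *Pdha1*, for the catalytic alpha subunit, and *Dlat*, for the acetyltransferase, had log2 fold changes of -0.072 (standard error 0.073) and -0.017 (standard error 0.061). Without single hearts *Pdha1* ranged over -0.11 to -0.015 and *Dlat* over -0.028 to -0.0018. The sign of *Dlat* turned after correction for length and GC (0.022) and without WT replicate 1 and A178D replicate 4 (0.0091). *Pdha1* was at -0.061 and -0.071 in these 2 fits. Of the kinases, *Pdk2* was at -0.10 (standard error 0.071) and *Pdk1* at -0.0015 (standard error 0.079) on the same scale, and the phosphatase transcript *Pdp1* at -0.034 (standard error 0.086). After correction for length and GC *Pdk2* was at -0.14 (unadjusted p = 0.0147, adjusted p = 0.150, edgeR with Benjamini-Hochberg adjustment) and *Pdk1* at 0.063. Without WT replicate 1 and A178D replicate 4, *Pdk2* was at -0.16 (unadjusted p = 0.0192, adjusted p = 0.154, same edgeR test) and *Pdk1* at 0.075. *Pdk3* was scarce, with 67 to 138 counts per library and a standard error of 0.26, so that a difference of this size could not have been called at this precision.

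The 4 transcripts of glycogen synthesis, for the supply of UDP-glucose (*Ugp2*), the protein primer (*Gyg*), chain growth (*Gys1*) and branching (*Gbe1*), all lay above 0 with a median log2 fold change of 0.12 that was 0.11 after correction for length and GC and 0.14 without WT replicate 1 and A178D replicate 4. *Gys1*, the muscle glycogen synthase, was at 198, 185 and 196 CPM in WT replicates 1, 3 and 4 and at 209, 211, 211 and 225 CPM in A178D replicates 1 to 4. Each A178D heart was above each WT heart, and A178D replicate 4 was the highest. *Gys1* had a log2 fold change of 0.15 (standard error 0.065, unadjusted p = 0.0366), with an adjusted p of 0.263 from the quasi-likelihood test of edgeR with Benjamini-Hochberg adjustment. *Gbe1*, the branching enzyme, was at 68.0, 66.5 and 73.0 CPM in WT replicates 1, 3 and 4 and at 85.3, 78.2, 77.5 and 73.4 CPM in A178D replicates 1 to 4. Here too the genotypes did not overlap, although A178D replicate 4 was only just above WT replicate 4. For *Gbe1* the log2 fold change was 0.18 (standard error 0.074, unadjusted p = 0.0254), with an adjusted p of 0.227 from the quasi-likelihood test of edgeR with Benjamini-Hochberg adjustment, and 0.21 after this correction (adjusted p = 0.0579, same edgeR test, Benjamini-Hochberg adjusted, range over the alternatives 0.0579 to 0.483).

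*Ugp2*, the most abundant of the 4 per transcript length, had 371, 324 and 319.6 CPM in the WT hearts and 386, 321, 348 and 352 CPM in the A178D hearts. WT replicate 1 lay above 3 of the A178D hearts, and the log2 fold change was 0.056 (standard error 0.079), with 0.0091 without A178D replicate 1 and 0.13 without WT replicate 1. *Gyg*, for glycogenin, overlapped as well (0.081 on the log2 scale, standard error 0.070, 0.044 after correction and 0.0087 without both libraries). The 4 genes summed to 822, 778 and 792 CPM in the WT and 889, 804, 846 and 871 CPM in the A178D hearts, where A178D replicate 2 lay below WT replicate 1.

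Of 4 transcripts of glycogen breakdown, *Pygm* for the muscle glycogen phosphorylase was the most abundant per length and was at 1634, 1598 and 1558 CPM in WT replicates 1, 3 and 4 and at 1606, 1648, 1603 and 1681 CPM in A178D replicates 1 to 4. The hearts overlapped within a narrow range, and the log2 fold change was 0.034 (standard error 0.059). The count table lists the same counts under a second identifier, and the pair was counted once as *Pygm*. *Pygb*, the brain form, was at 0.096 (standard error 0.062) and *Phka1*, for the muscle regulatory alpha subunit of phosphorylase kinase, at 0.15 (standard error 0.082) on the log2 scale, both with overlapping hearts. After correction for length and GC *Phka1* was at 0.22 (unadjusted p = 0.0104, adjusted p = 0.126, edgeR with Benjamini-Hochberg adjustment), and at 0.13 without WT replicate 1 and A178D replicate 4.

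*Phkg1* (ENSMUSG00000025537, chromosome 5 from 129863421 to 129898549) encodes the muscle catalytic subunit of phosphorylase kinase, which activates glycogen phosphorylase. It was at 24.0, 34.5 and 27.3 CPM in WT replicates 1, 3 and 4 and at 16.9, 21.7, 23.0 and 21.4 CPM in A178D replicates 1 to 4. All 4 A178D hearts lay below all 3 WT hearts, with the lowest value in A178D replicate 1 and the highest in WT replicate 3. The mean was 28.6 ± 5.37 CPM in WT (SD, n = 3) and 20.8 ± 2.66 in A178D hearts (SD, n = 4). With a log2 fold change of -0.46 (standard error 0.13), it had the largest difference of any tested member and was not called, with an adjusted p of 0.0789 from the quasi-likelihood test of edgeR with Benjamini-Hochberg adjustment. The adjusted p was 0.0437 after correction for length and GC and 0.0133 without WT replicate 1 and A178D replicate 4 in edgeR, and 0.0185 in DESeq2, so that these settings called it lower. Without WT replicate 1 it was called at 0.0243, and without WT replicate 3 the adjusted p in edgeR was 0.341 with a log2 fold change of -0.31 (Benjamini-Hochberg adjusted, range over all alternatives 0.0133 to 0.341). The locus overlaps *Chchd2* and *Gm42790* on its own strand and *Sumf2* and *Zbed5* on the other, and reads of overlapping genes may have been assigned differently by the counting program, which is not given in the sources used here.

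Entry into the pentose phosphate pathway was represented by *G6pdx*, which encodes glucose-6-phosphate dehydrogenase and was scarce. It was at 8.30, 10.3 and 10.6 CPM in WT replicates 1, 3 and 4 and at 10.2, 9.87, 9.91 and 10.2 CPM in A178D replicates 1 to 4. WT replicate 1 was the lowest heart and WT replicates 3 and 4 were slightly above the A178D hearts. The log2 fold change was 0.049 (standard error 0.11) and -0.051 without WT replicate 1.

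Isozyme shares compare transcripts within a heart and so need no scaling of library size, but they keep the libraries' trends with transcript length. For 10 pairs the share of the first isozyme in the sum of both was computed from counts per kilobase, and the genotypes were compared by an exact two-sided permutation test over the 35 assignments of 7 hearts, for which 0.0286 is the smallest possible p. None of the 10 pairs had an adjusted p under 0.05 (exact permutation test, Benjamini-Hochberg over 10 pairs), and 3 reached the smallest unadjusted p. An adjusted p under 0.05 would have needed 6 or more pairs at the smallest p, so that a few fully separate pairs could not have passed. *Hk1* made up 33.5, 36.0 and 32.2% of the *Hk1* and *Hk2* sum in WT replicates 1, 3 and 4 and 36.5, 36.2, 37.7 and 40.4% in A178D replicates 1 to 4. Every A178D heart was higher, although A178D replicate 2 exceeded WT replicate 3 only slightly, and the difference was 3.84 percentage points (exact permutation p = 0.0286, adjusted 0.0952). *Pfkp* made up 2.83, 2.94 and 2.41% of the *Pfkp* and *Pfkm* sum in WT and 3.93, 3.39, 3.29 and 3.29% in A178D hearts, again with all A178D hearts higher and a difference of 0.748 percentage points (exact permutation p = 0.0286, adjusted 0.0952). *Pgam1* made up 1.52, 1.47 and 1.41% of the *Pgam1* and *Pgam2* sum in WT and 1.37, 1.27, 1.38 and 1.31% in A178D hearts, with all A178D hearts lower and a difference of -0.135 percentage points (exact permutation p = 0.0286, adjusted 0.0952). The transcripts of this pair differ in length (1775 and 840.0 bases), and after correction for length and GC their log2 fold changes of 0.066 and 0.22 were 0.0077 and 0.090, which lie closer together.

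In 6 further pairs the genotypes overlapped. The mean share was 1.68% in WT and 1.74% in A178D hearts for *Slc2a1* beside *Slc2a4*, 7.90% and 8.22% for *Pfkl* beside *Pfkm*, and 6.38% and 6.70% for *Eno1* beside *Eno3*. It was 32.2% and 30.9% for *Ldha* beside *Ldhb*, 37.7% and 38.7% for *Pygb* beside *Pygm*, and 15.3% and 16.2% for *Pdk1* beside *Pdk2*. The share of *Aldoc* beside *Aldoa* was at most 0.00478% in any heart and rests on a few counts.

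**Figure D3:**
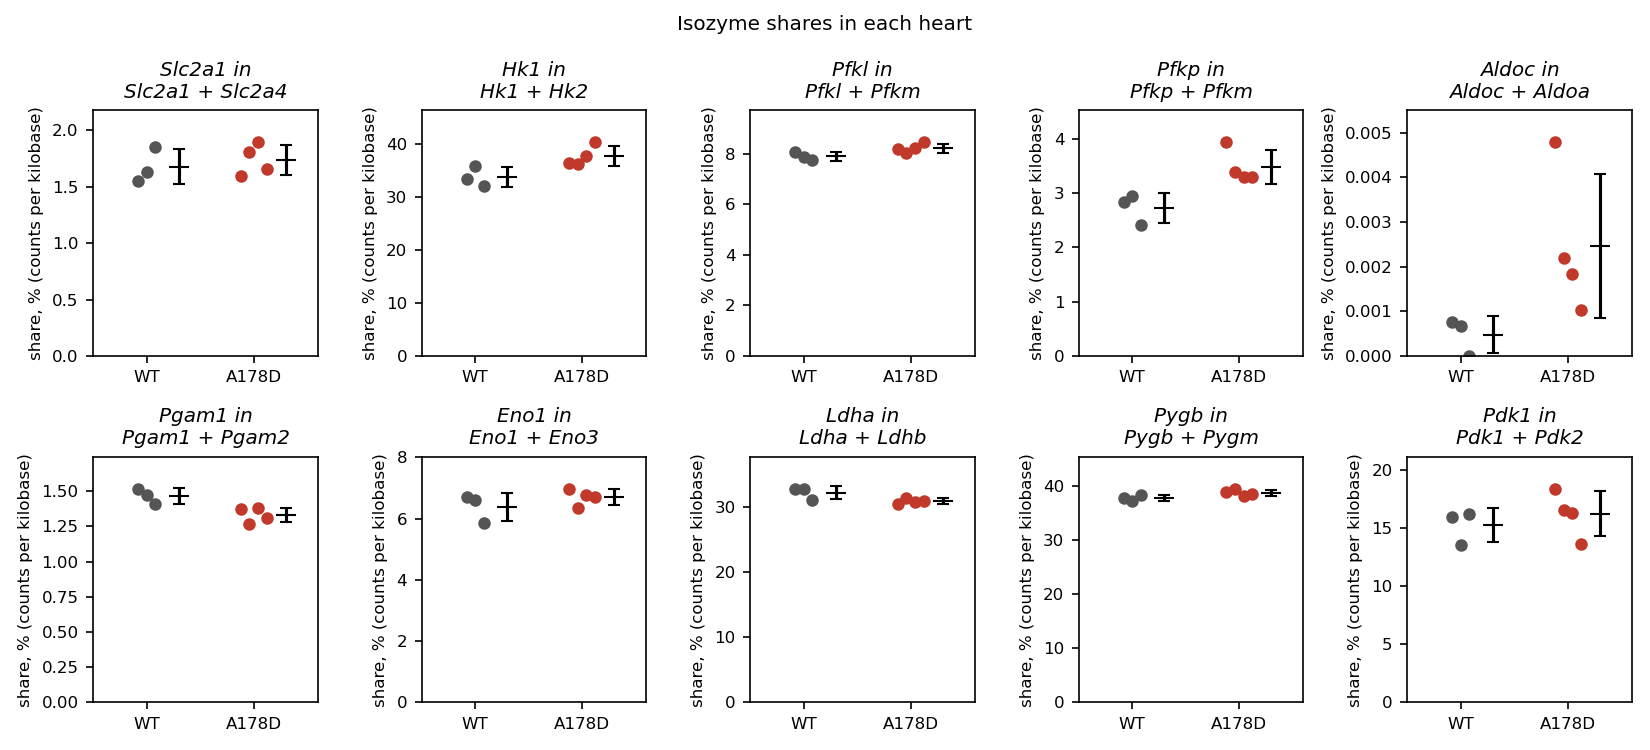
Share of the first isozyme in the sum of both for 10 pairs, in percent of counts per kilobase (vertical axes from 0), with points for hearts and bars for the mean ± SD of 3 WT and 4 A178D hearts. The genotypes do not overlap for *Hk1*, *Pfkp*, *Pgam1* and the barely detected *Aldoc*, with means for *Pfkp* of 2.73% in WT and 3.48% in A178D hearts.

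Beyond the members, 93 further genes of glucose use were examined in 8 lists, of which 87 were tested. 4 of 87 were called lower in A178D hearts, against 1.31% of all tested genes, and 0 higher, against 1.04%, by the quasi-likelihood test of edgeR with Benjamini-Hochberg adjustment (2.35% of all tested genes in either direction). At an unadjusted p under 0.05 there were 19 of 87 (11 below 0 and 8 above), against 16.7% of all tested genes. DESeq2 called 6 lower and 1 higher, and limma-voom 3 lower and 0 higher. The median log2 fold change of the 87 was -0.0015. *Ppara*, the nuclear receptor that drives fatty acid oxidation genes and thereby competes with glucose use, was at 148, 136 and 152 CPM in WT replicates 1, 3 and 4 and at 105, 117, 115 and 109 CPM in A178D replicates 1 to 4. All A178D hearts were lower, and *Ppara* fell (log2 fold change -0.38, standard error 0.070, adjusted p = 0.0144, the quasi-likelihood test of edgeR with Benjamini-Hochberg adjustment).

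*Pgm2l1*, which encodes glucose-1,6-bisphosphate synthase, an enzyme that makes the cofactor of phosphoglucomutase, was at 15.6, 16.2 and 18.1 CPM in WT replicates 1, 3 and 4 and at 11.2, 12.2, 13.1 and 12.0 CPM in A178D replicates 1 to 4. It was lower in every A178D heart (log2 fold change -0.46, standard error 0.099, adjusted p = 0.0285, the quasi-likelihood test of edgeR with Benjamini-Hochberg adjustment), and was not called after correction for length and GC (-0.32, adjusted p = 0.144, same edgeR test, Benjamini-Hochberg adjusted, range over the alternatives 0.00248 to 0.144). *Slc16a7*, the monocarboxylate carrier MCT2, was at 4.59, 7.52 and 8.86 CPM in WT replicates 1, 3 and 4 and at 3.52, 3.83, 4.19 and 3.61 CPM in A178D replicates 1 to 4. The A178D hearts lay close together below the WT hearts, which differed among themselves, and *Slc16a7* fell (log2 fold change -0.88, standard error 0.19, adjusted p = 0.0317, same edgeR test, Benjamini-Hochberg adjusted). Single hearts decided some of these calls. In fits that each omitted 1 heart, *Ppara* was called in 5 of 7 and lost without WT replicate 4 (adjusted p = 0.0772 in edgeR) or A178D replicate 1 (0.0566). *Pgm2l1* was called in 3, and its adjusted p from edgeR was 0.111 and 0.127 without WT replicates 3 and 4 and 0.0986 and 0.0694 without A178D replicates 1 and 2. *Slc16a7* was called only without WT replicate 1 (0.00150), with adjusted p values from edgeR of 0.165 and 0.167 without WT replicates 3 and 4, and 0.104, 0.0670, 0.0586 and 0.0517 without A178D replicates 1 to 4. In limma-voom it was not called (adjusted p = 0.0751, log2 fold change -0.80), and over all alternatives the adjusted p ran from 0.00107 to 0.167 for *Slc16a7* and from 7.14e-05 to 0.0772 for *Ppara*.

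Next in order of p among genes below 0 were *Klf15*, a transcription factor that raises *Slc2a4* (log2 fold change -0.49, standard error 0.12, adjusted p = 0.0516, the quasi-likelihood test of edgeR with Benjamini-Hochberg adjustment), *Ppp1r3a*, the muscle glycogen-targeting subunit of protein phosphatase 1 (-0.42, 0.14, 0.134), *Slc16a1*, the lactate carrier MCT1 (-0.18, 0.062, 0.171), and *Epas1*, the hypoxia-inducible factor HIF-2 alpha (-0.18, 0.067, 0.197). Above 0 they were *Arrdc4*, an arrestin-like gene of the glucose-responsive MondoA targets (0.47, 0.12, adjusted p = 0.0697, same edgeR test, Benjamini-Hochberg adjusted), *Pdk4*, the starvation-induced pyruvate dehydrogenase kinase (0.82, 0.30, 0.183), *Egln3*, an oxygen-sensing prolyl hydroxylase (0.30, 0.11, 0.196), and *Pygl*, the liver glycogen phosphorylase (0.35, 0.14, 0.232). None of these 8 was called by the edgeR test used throughout. With all hearts *Klf15* was called in edgeR with no filter on low counts (adjusted p = 0.0192, Benjamini-Hochberg) and after correction for length and GC (0.0219), and *Arrdc4* with no filter (0.0460), while the alternatives together ran from 4.44e-05 to 0.255 and 0.0151 to 0.279. *Klf15* was also called without WT replicate 1 (adjusted p = 0.00170 in edgeR) or A178D replicate 4 (0.0311), *Arrdc4* without A178D replicate 4 (0.0452) and *Egln3* without WT replicate 1 (0.0144). *Slc16a1* had a log2 fold change of -0.11 after correction for length and GC (unadjusted p = 0.179 in edgeR). For *Epas1* it was -0.12 without WT replicate 1 and A178D replicate 4 (unadjusted p = 0.0676 in edgeR). DESeq2 called *Klf15*, *Arrdc4* and *Ppp1r3a* of the 8, and *Ppp1r3a* had a log2 fold change of -0.24 without WT replicate 4. *Pdk4* had the largest standard error of them and was at 346, 136 and 497 CPM in WT replicates 1, 3 and 4 and at 624, 648, 637 and 403 CPM in A178D replicates 1 to 4. WT replicate 3 was far below the other hearts and A178D replicate 4 lay within the WT range. For *Pdk4* the log2 fold change was 0.45 without WT replicate 3 and 1.261 without WT replicate 4.

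By list, the median log2 fold change was -0.077 for the 8 tested genes of carriers of glucose, pyruvate and lactate, 0.036 for the 12 tested genes of other glycolytic enzymes, 0.010 for the 5 tested genes of the rest of the pyruvate dehydrogenase system, -0.058 for the 22 tested genes of the rest of glycogen metabolism. It was 0.095 for the 7 tested genes of the rest of the pentose phosphate pathway, -0.0044 for the 7 tested genes of the hexosamine branch, 0.12 for the 3 tested genes of the polyol branch and -0.0019 for the 23 tested genes of regulators of glucose use. For the rest of the pentose phosphate pathway it was 0.010 after correction for length and GC and 0.016 without WT replicate 1 and A178D replicate 4. The polyol branch had 0.046 after correction for length and GC and 0.11 without WT replicate 1 and A178D replicate 4, and the rest of the pyruvate dehydrogenase system 0.041 after correction for length and GC and 0.12 without WT replicate 1 and A178D replicate 4. The sign turned for regulators of glucose use (0.031 after correction and 0.043 without both libraries) and, without both libraries, for the hexosamine branch (0.080, and -0.021 after correction). *Hkdc1*, *Pgk2* and *Tktl1* had 0 counts in every library, and *Pklr*, *Ldhc* and *Gys2*, the red cell or liver, testis and liver isozymes, did not pass the filter.

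Markers of heart muscle and of other cells that such a sample can hold were read beside these results. The 10 Cardiomyocyte markers summed to 100124, 106672 and 106577 CPM in WT and 102691, 100754, 99544 and 110490.0 CPM in A178D hearts, with *Mb* as the most abundant per length, 5 of 10 above 0 and a median log2 fold change of 0.0027 (-0.065 after correction for length and GC, with 3 of 10 above 0, and -0.051 without WT replicate 1 and A178D replicate 4), and edgeR, DESeq2 and limma-voom called 0 of them (1 at an unadjusted p under 0.05 in edgeR). The hearts are labelled left ventricle, and counts were few for the atrial genes *Myl7*, with at most 8 counts in a library, *Sln*, with at most 4, and *Bmp10*, with 0, whereas *Stard10* had 940 to 1410 counts and *Myl4* 75 to 162. *Myl4* was higher in every A178D heart and not called (log2 fold change 0.65, unadjusted p = 0.0134, adjusted p = 0.171, the quasi-likelihood test of edgeR with Benjamini-Hochberg adjustment). The 6 Atrial myocyte markers summed to 278, 214 and 135 CPM in WT and 557, 393, 348 and 619.9 CPM in A178D hearts, most of it from *Nppa*, which was called higher (log2 fold change 1.31, adjusted p = 0.0146, the quasi-likelihood test of edgeR with Benjamini-Hochberg adjustment). The study counts *Nppa* in the foetal gene programme that it found induced in these mice. The part of atrial tissue in this sum was not tested. The 10 Skeletal muscle markers summed to 32.7, 37.1 and 32.7 CPM in WT and 40.1, 36.0, 37.1 and 35.9 CPM in A178D hearts, with *Mybpc2* as the most abundant per length, 0 of the 6 tested called by edgeR, limma-voom or, where it gave an adjusted p, DESeq2 (1 at an unadjusted p under 0.05) and *Myh4* at no more than 2 counts.

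Calls among markers of other cell types were few outside smooth muscle. The 5 Smooth muscle markers summed to 645, 649.6 and 604 CPM in WT and 394, 469.9, 485 and 484 CPM in A178D hearts, all 5 were below 0 with a median log2 fold change of -0.62, and 4 were called lower by the quasi-likelihood test of edgeR with Benjamini-Hochberg adjustment, namely *Acta2*, the most abundant (-0.59, adjusted p = 0.00587), *Tagln* (-0.62), *Myh11* (-0.67) and *Cnn1* (-0.82). The 7 Macrophage markers summed to 268, 345 and 316 CPM in WT and 385, 387, 349 and 389.7 CPM in A178D hearts, and all 7 were above 0 (median 0.29, 0.20 after correction for length and GC and 0.12 without WT replicate 1 and A178D replicate 4), with *Lyz2*, the most abundant, called higher (0.40, 0.34 after correction and 0.27 without both libraries, adjusted p = 0.0339, same edgeR test, Benjamini-Hochberg adjusted). The 6 Fibroblast markers summed to 1053, 1085 and 976 CPM in WT and 1264, 1209, 1154 and 1174 CPM in A178D hearts, 5 were above 0 (median 0.15) and 3 after correction for length and GC, *Dcn* was the most abundant and *Col3a1* was called higher (0.62, adjusted p = 0.0317, same edgeR test, Benjamini-Hochberg adjusted). *Dcn* (0.0026), *Tcf21* (0.043) and *Pdgfra* (-0.060) lay nearer to 0 than the 3 collagen transcripts of the list. *Col1a1* (0.45) and *Col1a2* (0.26) were not called in this edgeR test (adjusted p = 0.0813 and 0.178). After correction for length and GC edgeR called all 3 collagens higher. They were then at 0.52 for *Col1a1*, 0.31 for *Col1a2* and 0.69 for *Col3a1* (Benjamini-Hochberg adjusted p = 0.0156, 0.0403 and 0.00862). *Col1a1* was also called without WT replicate 1 and A178D replicate 4 (0.0138 in edgeR). DESeq2 called 2 genes higher in each of the Macrophage and Fibroblast lists, and limma-voom 1 in each. Beside *Lyz2* and *Col3a1*, the DESeq2 calls were *C1qb* (adjusted p = 0.0155) and *Col1a1* (0.0120). In CPM, the Macrophage and Fibroblast sums were both higher in every A178D heart than in every WT heart. Per kilobase this held for the Macrophage sum only. The Fibroblast sum then overlapped, at 395, 431 and 422 CPM per kilobase in WT and 482, 439, 427 and 432 in A178D hearts. Single hearts mattered here too, since only *Acta2* and *Tagln* kept their calls in all 7 fits without 1 heart. In these edgeR fits the adjusted p rose above 0.05 for *Myh11* without WT replicate 3 (0.0501) or 4 (0.0547), for *Nppa* without WT replicate 3 (0.0860), WT replicate 4 (0.0598) or A178D replicate 1 (0.0555), and for *Col3a1* without WT replicate 3 (0.113) or A178D replicates 1 to 3 (0.0840, 0.0672 and 0.0712). For *Cnn1* it did so without every heart but A178D replicate 4 (WT replicates 0.109, 0.0604 and 0.106, A178D replicates 1 to 3 0.104, 0.0594 and 0.0591), and for *Lyz2* without every heart but A178D replicates 3 and 4 (WT replicates 0.0706, 0.0915 and 0.0786, A178D replicates 1 and 2 0.117 and 0.0621). The 7 Endothelium markers summed to 1150.2, 1077 and 1006 CPM in WT and 1063, 1059.7, 1102 and 1074 CPM in A178D hearts, with a median of 0.033 (-0.062 after correction for length and GC and -0.031 without WT replicate 1 and A178D replicate 4), *Egfl7* as the most abundant and 0 called by edgeR, DESeq2 or limma-voom or at an unadjusted p under 0.05 in edgeR. Without WT replicate 1 and A178D replicate 4, *Kdr* had an adjusted p of 0.0127 in edgeR (Benjamini-Hochberg, log2 fold change 0.30), against 0.775 with all hearts and 0.405 after correction for length and GC.

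The 5 Erythrocyte markers summed to 76.9, 81.0 and 72.8 CPM in WT and 94.8, 71.8, 67.5 and 103 CPM in A178D hearts with *Hbb-bs* as the most abundant, the 5 Adipocyte markers to 0.304, 0.660 and 1.65 CPM in WT and 0.223, 1.21, 0.609 and 0.679 CPM in A178D hearts with *Adipoq*, and the 5 Schwann cell and nerve markers to 12.9, 16.0 and 11.7 CPM in WT and 13.9, 13.4, 15.7 and 20.6 CPM in A178D hearts with *Mbp*. Of the 13 tested among these 15 markers, 0 were called by edgeR, limma-voom or, where it gave an adjusted p, DESeq2, and 1 had an unadjusted p under 0.05 in edgeR. The non-muscle isozymes *Pfkp*, *Hk1* and *Eno1* and the glycogen gene *Gbe1* are also expressed outside cardiomyocytes, and the part of macrophages, fibroblasts and smooth muscle cells in their values was not tested.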

How the data were processed

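Left ventricles of 3 WT and 4 A178D mice were sequenced from stranded poly(A) libraries, and the authors deposited raw counts per gene. The submitters' processing notes name bcl2fastq 2.18.0.12, HISAT2 2.1.0, SAMtools 1.6, DESeq2 1.26.0 and GRCm38. The counting program, its annotation and its use of strand are not given in the sources used here. A second deposited table of size-factor scaled counts was not used. Of 21257 entries, sets with identical counts (at least 30) were reduced to 1 entry each, and 107 entries with fewer counts that repeated both the identifier and the counts of another were dropped, which left 20927. Libraries held 33080675 to 54245530 counts. Among counts of 1 to 20 only 17.6 to 20.3% were odd, so that read ends rather than fragments appear to have been counted, and precision at low counts is less than the counts imply. Symbols, positions and lengths came from GENCODE M21 on GRCm38, with the median length over a gene's basic protein-coding transcripts. A median over every protein-coding transcript was the first definition, and was replaced after the lengths were seen, because fragment models shortened it, and before any share or fit was computed. It is kept as an added alternative for the shares.

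A178D was compared with WT in R 4.3.3 with edgeR 4.0.16 (TMM, glmQLFit, glmQLFTest, no covariates, 10 or more counts required in 3 or more libraries, Benjamini-Hochberg over all tested genes). Standard errors are the log2 fold change divided by the square root of the F statistic. Alternatives were DESeq2 1.42.0, its size factors in edgeR, limma-voom (limma 3.58.1), no filter, at least 10 counts in every library, a replicate block, every deposited entry kept, offsets for length and GC content trends (mgcv 1.9.3, basis size 6, 99.99% of tested genes with a length) and leaving out each heart in turn. Leaving out WT replicate 1 and A178D replicate 4 together was chosen after seeing the data. Isozyme shares were also computed without division by length and with the longest transcript. The code was tested on simulated data.

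The members, the lists and the rule for naming genes were chosen with earlier results of these data known. Values in every heart are given for members with an unadjusted or adjusted p under 0.05, for members without overlap in CPM, for the most abundant member of each role, for isozymes whose share did not overlap and for *Gapdh*. Beyond the members, called genes (1 is not reported here) and up to 4 further genes per direction with an unadjusted p under 0.05 are named, with values in every heart for *Pdk4*, which had the largest standard error of these. Of markers, the most abundant gene and called genes are named. Reads shared with processed copies or overlapping genes could not be resolved from gene counts.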

Additional observations from a re-analysis of the deposited data

Results flagged for a closer look

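Among 59 groups of 4 A178D values (39 members, 10 isozyme shares and 10 marker sums), 6 held a heart far from the other 3 in Dixon's ratio, for which about 1 group in 20 is expected by chance. WT groups of 3 were not examined. A178D replicate 4 stood apart for 3 members, with 4008 CPM of *Aldoa* against 3435 to 3489.6 in the other A178D hearts, 786 CPM of *Pgam2* against 619 to 624, and 225 CPM of *Gys1* against 209 to 211. It is also the library with the steepest dependence of counts on transcript length (-0.124 per doubling, log2), and the part of this trend in the 3 values was not tested. Without this heart the log2 fold change was -0.019 for *Aldoa*, 0.12 for *Pgam2* and 0.12 for *Gys1*. A178D replicate 1 had a share of *Pfkp* beside *Pfkm* of 3.93% against 3.29 to 3.39% in the others, and a Smooth muscle marker sum of 394 CPM against 469.9 to 485. A178D replicate 3 had a Macrophage marker sum of 349 CPM against 385 to 389.7, which was still above every WT heart.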

How the results depend on the processing

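The number of members called higher was 1 under every alternative except the replicate block, where it was 0, and leaving out single hearts, where it was 0 to 1. In the replicate block, A178D replicate 2 adds nothing to the comparison of genotypes, since no WT heart bears its number. The number called lower was 1 in place of 0 with DESeq2, with no filter on low counts, with the replicate block, with offsets for length and GC and without WT replicate 1 and A178D replicate 4, and 0 to 1 without single hearts. In each of these cases the gene was *Phkg1*. Of the pathway genes beyond the members, 4 were called, and 7 with DESeq2, 10 without both libraries and 0 to 7 without single hearts. Calls over all tested genes moved as well, from 2.35% to 4.00% with DESeq2, 5.53% without both libraries and 0.384 to 3.29% without single hearts. The median log2 fold change of the members ranged from 0.024 to 0.060 and moved by less than 1 SD of the hearts. No isozyme pair had an adjusted p under 0.05 under any alternative, but with a WT or an A178D heart left out the exact permutation test cannot give a p below 0.0667 or 0.10, so those versions could not pass.

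For 20 named members, every alternative but the one that kept every deposited entry was tallied. Of these 300 values, 273 kept sign and call, 6 lost the call (*Pfkp*), 6 gained it (*Phkg1*) and 15 changed sign, all of genes that were not called. With the offsets for length and GC *Aldoa* was at -0.040 and *Pdhb* at -0.048, with no filter *Pdhb* was at -0.00023, and without both libraries *Aldoa* was at -0.045, *Pdhb* at -0.066 and *G6pdx* at -0.062. Without single hearts the range was -0.0049 to 0.15 for *Hk1*, -0.0029 to 0.037 for *Pfkm*, -0.019 to 0.063 for *Aldoa*, -0.014 to 0.17 for *Pgam1*, -0.035 to 0.037 for *Pdhb* and -0.051 to 0.11 for *G6pdx*. Of the other members, *Gpi1*, *Pfkfb1*, *Pfkfb3*, *Ldha*, *Pdk1* and *Pdp1* also changed sign without a single heart, with ranges of -0.0034 to 0.057, -0.33 to 0.0047, -0.0064 to 0.18, -0.0079 to 0.072, -0.068 to 0.044 and -0.084 to 0.031. The cause was not tested.

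Shares depend on the lengths used. The mean share of *Hk1* beside *Hk2* was 68.9% in WT and 72.4% in A178D hearts with the median over every protein-coding transcript, against 33.9% and 37.7%. It was 31.6% and 35.3% with no division by length, and 37.3% and 41.3% with the longest transcript. Only the median over every protein-coding transcript put *Hk1* above *Hk2*, so that which was the major one depends on the lengths used. With the median over every protein-coding transcript the difference between genotypes was 1.44 percentage points for *Pfkp* and 0.499 for *Pfkl*, in place of 0.748 and 0.325, with the same exact two-sided permutation p. With no division by length it was -0.277 for *Pgam1*, in place of -0.135.

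WT and A178D hearts share replicate numbers 1, 3 and 4. Deviations of same-numbered hearts from their group means correlated at 0.00313, -0.0402 and -0.0424 across 13894 genes. Those of differently numbered hearts correlated at -0.07 to 0.066. No pairing by number was seen in these values, but they cannot exclude one. With the replicate block, 124 genes were called higher and 147 lower in place of 145 and 182, the adjusted p in edgeR was 0.0663 for *Pfkp* and 0.0313 for *Phkg1*, 5 pathway genes were called, among them *Klf15* (adjusted p = 0.0348 in edgeR) but not *Pgm2l1* (0.0789), the marker *Cnn1* was not called (0.0617), and the members' median was 0.059.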

Other observations

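Summed over the members of a role, PFK-2/FBPase-2 transcripts were at 227, 235 and 215 CPM in WT and 223, 181, 187 and 183 CPM in A178D hearts, where A178D replicate 1 lay within the WT range and the others below it. Glucose uptake and trapping summed to 1444, 1511 and 1364 CPM in WT and 1299, 1324, 1317 and 1395 CPM in A178D hearts, where A178D replicate 4 lay above WT replicate 4. Glycogen breakdown summed to 3143, 3049 and 3043 CPM and 3161, 3283, 3123 and 3277 CPM, and the pyruvate dehydrogenase system to 3417, 3520.0 and 3645 CPM and 3518, 3365, 3409 and 3364 CPM, both with overlap. These sums are carried by the most abundant genes of each role and were not tested.

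*Slc2a4* and *Klf15*, whose product is known to raise *Slc2a4*, both had a lower mean in A178D than in WT hearts. *Klf15* was at 65.7, 101 and 92.0 CPM in WT replicates 1, 3 and 4 and at 56.7, 59.4, 59.5 and 69.8 CPM in A178D replicates 1 to 4, so that WT replicate 1 lay within the A178D range. Its adjusted p from the quasi-likelihood test of edgeR with Benjamini-Hochberg adjustment was 0.0516, and 0.0219 after correction for length and GC, within a range of 0.00170 without WT replicate 1 to 0.255 without WT replicate 3 when single hearts were left out. A relation between the transcripts was not tested.

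Protein amounts, enzyme activity and glycogen content were not analysed here, and a transcript level does not give flux.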
